A study of Mus musculus with 6 samples.

Results

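The genes described here serve antigen presentation on major histocompatibility complex (MHC) class I molecules. They were chosen by name from the table of transcript levels: B2m, H2-D1, H2-K1, H2-T23, Tap1, Tap2, Tapbp, Tapbpl, Erap1 and Nlrc5, 10 of 55740 gene models. Each of the 10 names matched 1 gene model, and all 10 were among the 12539 genes tested. They were measured by RNA sequencing in bone marrow-derived dendritic cells of C57BL/6J mice, which are antigen-presenting cells grown in culture from bone marrow. The control group was given phosphate-buffered saline (PBS) and the other group 18 mM lysine, a cationic amino acid, with 3 samples in each. The series' design text gives 6 h for the treatment. The labels name no other agent, and no activating stimulus. Mouse age, culture conditions and growth factors are unstated in the sources used here. Nothing in the labels ties a replicate to its own culture or mouse, so each p-value reflects the spread among these 6 samples, part or all of which may be technical.

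MHC class I molecules show short peptides from inside the cell to CD8 T cells. A heavy chain pairs with beta-2 microglobulin in the endoplasmic reticulum. The transporter TAP, a heterodimer of TAP1 and TAP2, brings in peptides that the proteasome has cut, and tapasin and its relative TAPBPR help to select peptides that bind well. The aminopeptidase ERAP1 trims peptides inside the endoplasmic reticulum. Transcription of many of these genes is raised by interferons and by the transactivator NLRC5, which acts through a promoter element, the SXY module, that RFX, CREB/ATF and NF-Y factors occupy. Dendritic cells use the pathway both for their own peptides and for cross-presentation of material they take up.

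In these cells, lysine was followed by lower levels of the transactivator gene Nlrc5 and of Tap1, while the mean TPM of B2m, H2-K1, H2-D1 and H2-T23, the 4 chain genes among the 10, differed by 1.15-fold at most. Tap1 fell from 68.8 ± 14.3 to 27.2 ± 3.49 TPM (transcript abundance; SD, n = 3), and Nlrc5 from 31.6 ± 8.48 to 15.9 ± 4.36 TPM. B2m rose slightly, from 3908 ± 170.5 to 4485 ± 304 TPM. TPM is the share of a gene in all transcripts after division by transcript length, so levels of different genes can be set side by side, but sequencing depth is unknown. Of the 10 genes, 1 was called higher, 2 lower and 7 did not pass, at an adjusted p under 0.05 in limma. Over all genes tested, 55.1% were called, 25.8% higher and 29.3% lower. The median log2 fold change of the 10 genes was 0.02, and that of all tested genes was -0.05. Fold changes were computed as differences of log2(TPM + 1), so for low genes they come out smaller than the change in TPM. Their standard error (SE) follows the ± sign.

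Replicate 3 stood apart in class II genes in both groups. H2-Ab1, a class II chain gene, was at 319, 338 and 741 TPM with PBS and at 359.6, 354 and 677 TPM with lysine, and Cd74, the invariant chain gene, reached 4141 and 4046 TPM in replicate 3 against 2735 to 3193 TPM in the others. Where leaving out replicate 3 of both groups changes the call of any of the 10 genes, that value is given too.

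The sequences before the starts of the chain genes are shown first, because the factors named above act there. RefSeq promoter windows on GRCm38.p6 matched 7 of the 10 genes. The 250 bases before each start were searched on both strands, letter by letter, for GGGATTCCC (a kappa B type site), TGACG (the core of the CREB/ATF element), CCAAT (the Y box of NF-Y) and GAAANNGAA (an interferon response type). No 2 of these motifs overlapped in the stretches printed. Capitals mark the matches, and CCAAT on the opposite strand reads ATTGG. RefSeq gives H2-K1 a pair of starts, and the window before the upstream one is used. The first sequence lies at chr17:34000348-34000597 on the minus strand, before H2-K1, and the second at chr2:122147437-122147685 on the plus strand, before B2m.
H2-K1: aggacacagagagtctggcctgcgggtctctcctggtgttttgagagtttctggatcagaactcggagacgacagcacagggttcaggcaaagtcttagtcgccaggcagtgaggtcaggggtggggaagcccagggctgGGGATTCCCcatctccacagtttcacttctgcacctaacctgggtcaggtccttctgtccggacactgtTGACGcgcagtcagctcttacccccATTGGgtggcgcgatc
B2m: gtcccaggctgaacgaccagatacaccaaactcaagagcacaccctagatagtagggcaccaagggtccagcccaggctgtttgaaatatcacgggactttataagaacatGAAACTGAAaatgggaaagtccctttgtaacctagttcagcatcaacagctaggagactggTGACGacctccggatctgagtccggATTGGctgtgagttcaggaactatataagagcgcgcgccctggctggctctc

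Annotated exons of other transcripts cover all 250 bases before the starts of H2-D1 and Tap1, including the stretches printed below. These windows are therefore shown only by 30 bases around 1 match. The stretch of H2-D1 holds its kappa B type site. It lies at chr17:35262913-35262942 on the plus strand, and 29 of its 30 bases are identical to the matching stretch before H2-K1. For Tap1 the 30 bases around its TGACG match are shown, at chr17:34187457-34187486 on the plus strand.
H2-D1: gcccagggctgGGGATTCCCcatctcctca
Tap1: gcccagagacaggTGACGacagagggtcct

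Matches were counted in all 7 windows. The kappa B type site was found before H2-K1 and H2-D1 and before 0.301% of 32851 windows genome-wide. TGACG was found before B2m, H2-D1, H2-K1 and Tap1, and before 17.8% of all windows. CCAAT was found before B2m, H2-D1, H2-K1, H2-T23, Tap1 and Tapbp, and before 33.8% of all windows. GAAANNGAA was found before B2m, H2-T23 and Erap1, and before 7.13% of all windows. A match is a string of letters and not a bound site. A window without a match can still hold a variant of the element that these exact strings miss.

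Nlrc5, on chromosome 8 (94434356 to 94527272 in GRCm38, ENSMUSG00000074151), encodes the transactivator of class I genes. Its level was 29.9, 24.2 and 40.9 TPM in PBS replicates 1, 2 and 3, and 12.9, 13.8 and 20.9 TPM in the lysine replicates. Every lysine sample was below every PBS sample, and replicate 3 was the highest of each group. The mean was 1.99-fold lower with lysine (log2 fold change -0.95 ± 0.24, limma adjusted p = 0.014). Without replicate 3 of both groups the log2 fold change was -0.96 (limma adjusted p = 0.00355), a setting chosen after the data were seen.

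The remaining 9 genes are taken in order from the chains to the trimming enzyme. B2m, the light chain of every class I molecule, lies on chromosome 2 (122147686 to 122153083, ENSMUSG00000060802). Its level was 3894, 4085 and 3745 TPM in the PBS samples and 4567, 4739 and 4148 TPM in the lysine samples. The groups did not overlap, but the gap between them was small: the highest PBS sample had 4085 TPM and the lowest lysine sample 4148 TPM. The mean was 1.15-fold higher with lysine (log2 fold change 0.20 ± 0.069, limma adjusted p = 0.0483). The call was lost in 7 of 14 other settings, where the adjusted p lay between 0.0687 and 0.229. They included leaving out PBS replicate 1 (0.12), 2 (0.0687) or 3 (0.117), or lysine replicate 1 (0.134) or 2 (0.159).

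H2-K1 and H2-D1 encode the classical heavy chains K and D, which present peptides to CD8 T cells. H2-K1 (chromosome 17, 33996017 to 34000347, ENSMUSG00000061232) was at 2627, 2572 and 2717 TPM with PBS and at 2683, 2619.9 and 2425 TPM with lysine. The groups overlapped, and the log2 fold change was -0.04 with a 95% interval from -0.17 to 0.10 (limma adjusted p = 0.631). Its sign turned under median-of-ratios scaling (0.01). H2-D1 (chromosome 17, 35262730 to 35267499, ENSMUSG00000073411) was at 2266, 2249.7 and 2370.4 TPM with PBS and at 2588, 2593 and 2365 TPM with lysine. Lysine replicates 1 and 2 were above all PBS samples, and replicate 3 was not. The log2 fold change was 0.13, with an interval from -0.01 to 0.27 (limma adjusted p = 0.0968). Summed over H2-K1 and H2-D1, the level was 4934 ± 137.5 TPM with PBS and 5091 ± 263 TPM with lysine.

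H2-T23 encodes Qa-1, a non-classical heavy chain recognised by NKG2A receptors (chromosome 17, 36029773 to 36032855, ENSMUSG00000067212). It was at 291, 280.4 and 333 TPM with PBS and at 330.1, 325 and 321 TPM with lysine. PBS replicate 3 lay above all lysine samples, and both other PBS samples lay below them. The log2 fold change was 0.11, with an interval from -0.06 to 0.29 (limma adjusted p = 0.226). Without replicate 3 of both groups, H2-T23 (0.20), H2-D1 (0.20) and Tapbp (0.14) were called higher beside B2m (0.22), given as log2 fold changes with limma adjusted p of 0.00872, 0.0019, 0.0206 and 0.00641. Without PBS replicate 3 alone, H2-T23 (0.19, adjusted p = 0.0242) and Tapbp (0.15, adjusted p = 0.0468) passed in limma. H2-D1 also passed without lysine replicate 3 (0.17, limma adjusted p = 0.0176) and under median-of-ratios scaling (0.18, limma adjusted p = 0.0476).

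**Figure D1:**
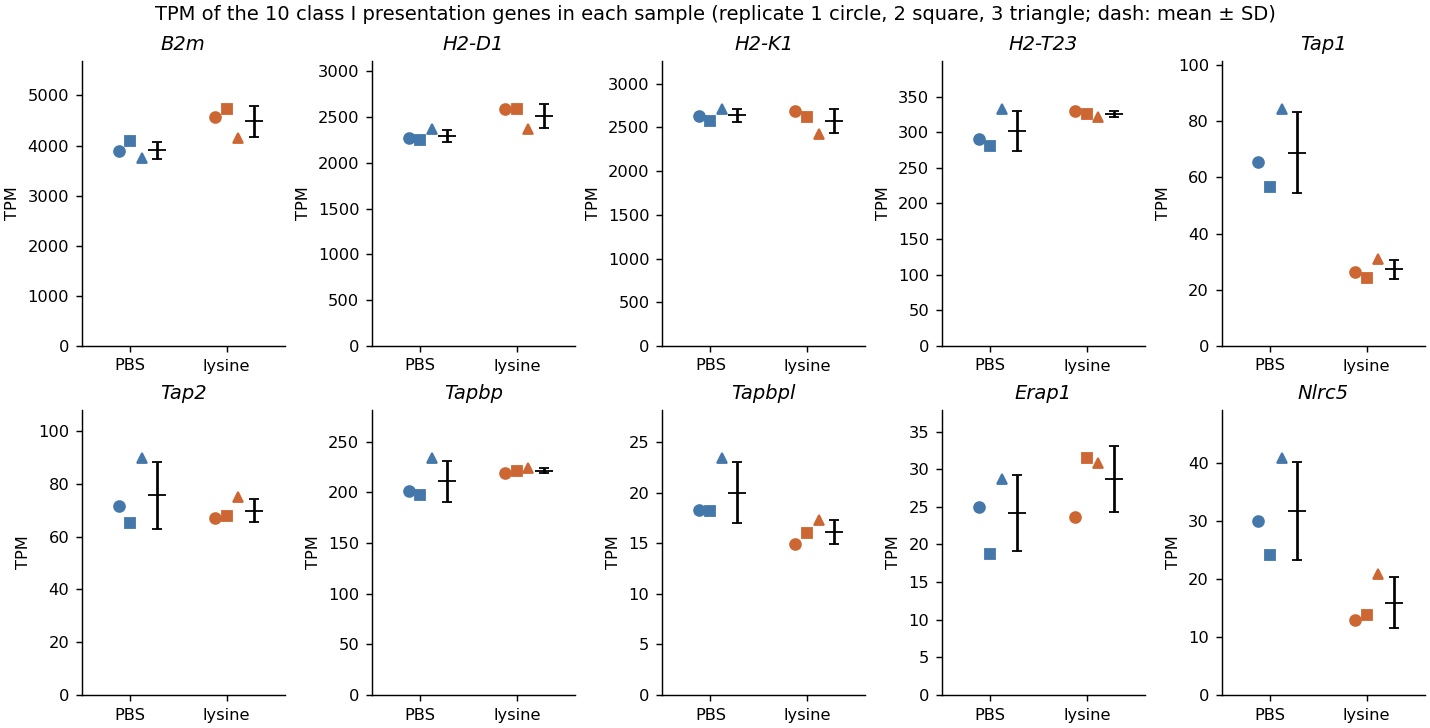
TPM (y axis, from 0) of the 10 genes in the 3 PBS and 3 lysine samples, with the replicate shown by the symbol and the mean ± SD beside the points. Tap1 and Nlrc5 separate downward, B2m separates narrowly upward, and replicate 3 is the highest of the PBS samples in every panel but B2m.

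Some reads of heavy chain genes can come from near-identical copies, so their levels are uncertain. Of all distinct 50-base stretches in the annotated transcripts of H2-K1, 9.63% also occur in transcripts of other genes, H2-Q10 first among them. The share was 12.8% for H2-D1 and 13.6% for H2-T23. It counts any other gene, chain gene or not: 24 for H2-K1, 103 for H2-D1 and 99 for H2-T23. The same share was 0% for B2m, Erap1 and Nlrc5, 0.442% for Tap1, 0.655% for Tap2, 2.87% for Tapbp and 3.52% for Tapbpl.

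TAP1 and TAP2 join as a single transporter, and of their genes Tap1 was called lower and Tap2 was not called. Tap1 (chromosome 17, 34187553 to 34197225, ENSMUSG00000037321) was at 65.4, 56.4 and 84.5 TPM with PBS and at 26.4, 24.3 and 31.1 TPM with lysine. The highest lysine sample, at 31.1 TPM, was far below the lowest PBS sample, at 56.4 TPM. The mean was 2.52-fold lower (log2 fold change -1.29 ± 0.16, 95% interval -1.68 to -0.91, limma adjusted p = 0.000795). Without replicate 3 of both groups the log2 fold change was -1.23 (limma adjusted p = 0.00096). Only 3.54% of all tested genes had a lower log2 fold change than Tap1, against 8.12% for Nlrc5.

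Tap2 (chromosome 17, 34203527 to 34216321, ENSMUSG00000024339) was at 71.6, 65.3 and 89.9 TPM with PBS and at 66.9, 67.8 and 74.8 TPM with lysine. These values overlapped. The log2 fold change was -0.10, with an interval from -0.39 to 0.19 (limma adjusted p = 0.51), and it was 0.03 without PBS replicate 3. The ratio of Tap1 to Tap2 within a sample, which no scaling of the sample can change, was 0.912, 0.865 and 0.9399 with PBS and 0.394, 0.358 and 0.416 with lysine. The transcripts were thus close to equal in the PBS samples, and Tap1 was the lower in all 3 lysine samples by a wide gap.

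The Tap genes lie in the MHC class II region beside the genes of 2 subunits of the immunoproteasome, the form of the proteasome that favours class I ligands. These neighbours were looked at after the values of Tap1 were seen. Psmb9 is transcribed away from Tap1, and the RefSeq starts of both genes are 225 bases apart. Psmb9 was at 56.9, 59.2 and 96.2 TPM with PBS and at 26.2, 19.9 and 34.9 TPM with lysine, with no overlap (log2 fold change -1.35 ± 0.26, limma adjusted p = 0.00496). Psmb8, between Tap1 and Tap2, fell from 321 ± 46.8 to 233 ± 26.6 TPM (log2 fold change -0.45 ± 0.12, limma adjusted p = 0.0197). Its call was lost without lysine replicate 1 (adjusted p = 0.0651) or 2 (adjusted p = 0.064) in limma, and in limma with no filter on low values (adjusted p = 0.0522). Some annotated exons of Tap1 and Psmb9 overlap on opposite strands, by 212 bases or 3.87% of the exonic bases of Tap1. Whether strand was used in the counting is unstated, so reads from those bases cannot be told apart. Antisense or neighbouring genes also cover 18.5% of the exonic bases of Tap2, 29% of Tapbp, 11.5% of Erap1 and 0.918% of Nlrc5.

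**Figure D2:**
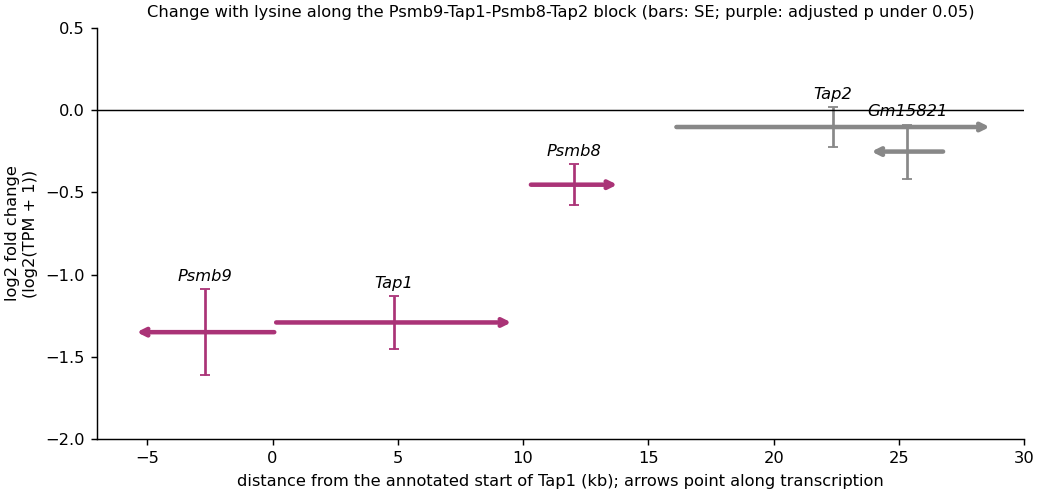
Log2 fold change with lysine (y axis, log2(TPM + 1) scale, bars SE) of the tested genes from Psmb9 to Tap2 against distance from the Tap1 start in kb (x axis), with arrows along transcription. The divergent pair Psmb9 and Tap1 are lowest, at -1.35 and -1.29, Psmb8 is at -0.45 and Tap2 at -0.10. Gm15821, an antisense RNA gene over Tap2, is at -0.25.

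Neither gene of the peptide editors passed the test. Tapbp, which encodes tapasin (chromosome 17, 33915899 to 33929292, ENSMUSG00000024308), was at 201, 197 and 234 TPM with PBS and at 219, 221 and 224 TPM with lysine. The groups overlapped (log2 fold change 0.07, interval -0.11 to 0.25, limma adjusted p = 0.442), and the sign turned under quantile normalization (-0.04). Tapbpl, which encodes TAPBPR (chromosome 6, 125223933 to 125231860, ENSMUSG00000038213), was at 18.3, 18.2 and 23.5 TPM with PBS and at 15.0, 16.0 and 17.4 TPM with lysine. All lysine samples were below all PBS samples, yet the change missed the threshold (log2 fold change -0.29 ± 0.12, interval -0.57 to -0.01, limma adjusted p = 0.0768). It passed in limma under quantile normalization (adjusted p = 0.0479).

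Erap1, the trimming enzyme gene (chromosome 13, 74639568 to 74693201, ENSMUSG00000021583), was at 25.0, 18.8 and 28.7 TPM with PBS and at 23.7, 31.5 and 30.8 TPM with lysine. The groups overlapped, and the log2 fold change of 0.25 had an interval from -0.18 to 0.67 (limma adjusted p = 0.274). Its spread between samples was wide, at 20.8% of the PBS mean, against 2.78% for H2-K1 and 2.85% for H2-D1. Small changes of Erap1, Nlrc5 and Tap1 are therefore less detectable in these samples than small changes of the heavy chain genes. Groups did not overlap for 4 of the 10 genes, against 63.4% of all genes tested. Lysine was the higher for 1 of them (B2m), against 29.7% of all genes, and the lower for 3 (Tap1, Tapbpl and Nlrc5), against 33.7%.

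**Figure D3:**
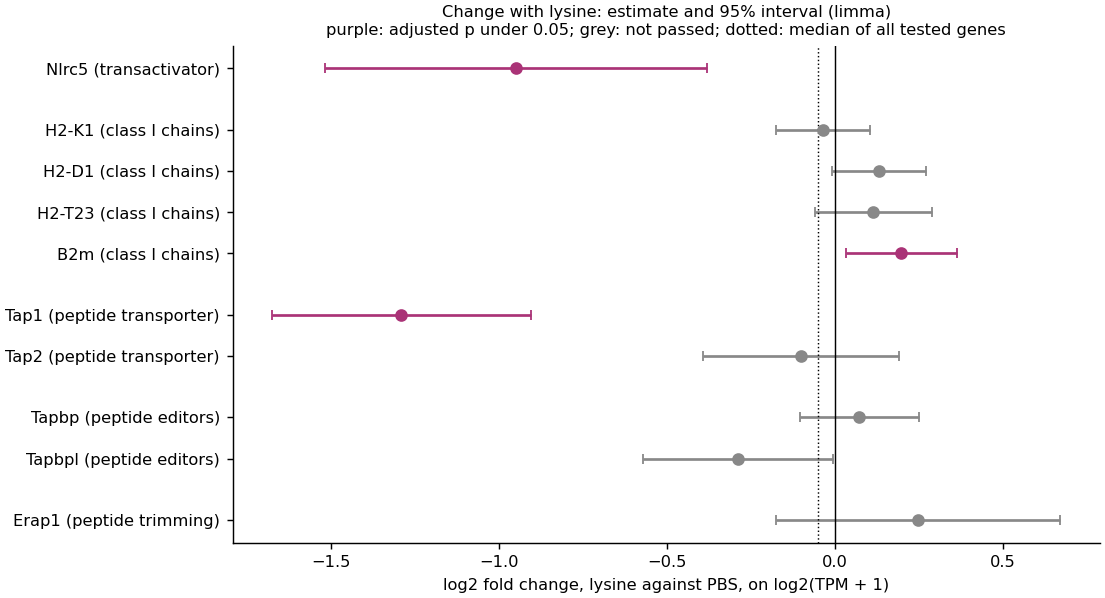
Log2 fold change with lysine (x axis, log2(TPM + 1) scale) of the 10 genes by role, with 95% intervals from limma. The intervals of Tap1 (-1.68 to -0.91) and Nlrc5 (-1.52 to -0.38) lie well below 0, and the dotted line at -0.05 is the median of all tested genes.

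Levels spanned a wide range. In the PBS samples B2m, H2-K1, H2-D1 and H2-T23 stood above 99.8%, 99.7%, 99.6% and 96.5% of the genes tested, and Tapbpl above 60.7%. The order of the PBS means was B2m, H2-K1, H2-D1, H2-T23, Tapbp, Tap2, Tap1, Nlrc5, Erap1 and Tapbpl. Samples of neighbours overlapped for Tap2 and Tap1, for Nlrc5 and Erap1, and for Erap1 and Tapbpl. With lysine, H2-K1 and H2-D1 also overlapped, Tap1 lay within the range of Erap1 and below Tap2, and Nlrc5 overlapped with Tapbpl at the bottom of the order.

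Ratios within a sample show how the parts of the complex stood to each other. In all, 6 ratios were compared by a 2-sided exact permutation test, which cannot go below p = 0.1 with 3 samples against 3. H2-K1 to H2-D1 was 1.16, 1.14 and 1.15 with PBS and 1.04, 1.01 and 1.03 with lysine (exact p = 0.1, adjusted p = 0.15). This ratio was tight within each group, and every lysine sample was lower. H2-K1 to B2m fell outside the PBS range as well, at 0.677 ± 0.048 with PBS and 0.575 ± 0.0192 with lysine (n = 3, exact p = 0.1, adjusted p = 0.15). H2-D1 to B2m (0.589 ± 0.0415 and 0.561 ± 0.0124, n = 3, exact p = 0.4, adjusted p = 0.48) and H2-T23 to B2m (0.0775 ± 0.0105 and 0.0728 ± 0.00443, n = 3, exact p = 0.6, adjusted p = 0.6) overlapped. Tap1 to Tap2 and Tapbpl to Tapbp did not, at 0.906 ± 0.038 against 0.389 ± 0.0291 and 0.0946 ± 0.00507 against 0.0728 ± 0.00449 (n = 3, exact p = 0.1, adjusted p = 0.15 for both). No ratio can pass a threshold of 0.05 in this design.

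**Figure D4:**
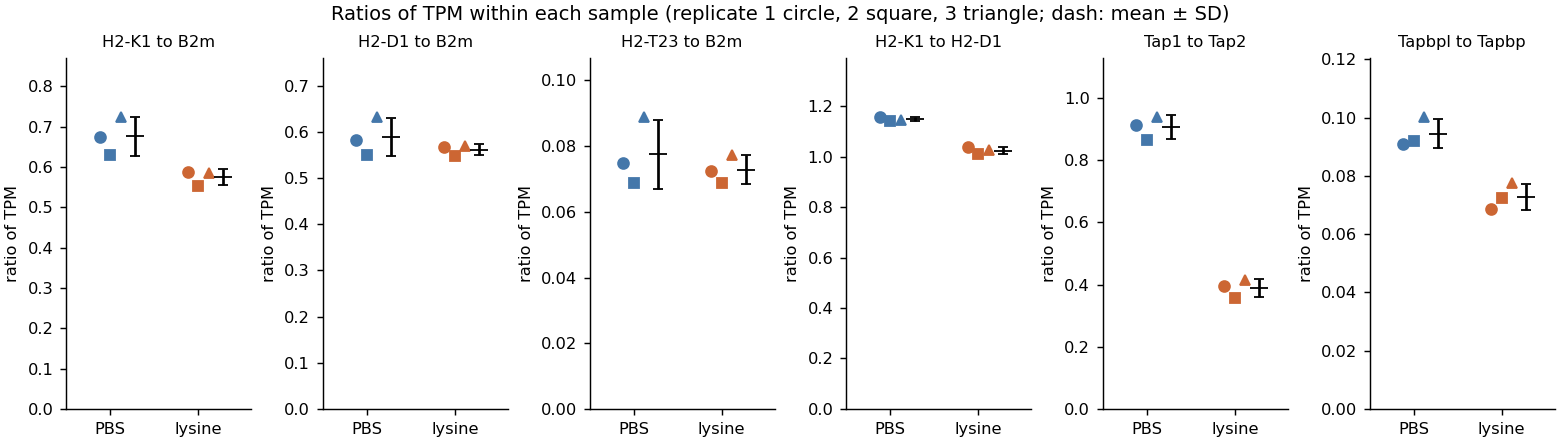
Ratio of TPM within each sample (y axis, from 0) for 6 pairs of class I genes in the 3 PBS and 3 lysine samples, with the mean ± SD beside the points. Tap1 to Tap2 drops from a mean of 0.906 to 0.389, and H2-K1 to H2-D1 from 1.15 to 1.02 with little spread.

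Other genes of the pathway were taken from 5 lists of 91 genes, 76 of them tested. Of these, 15 were higher, 28 lower and 33 did not pass, so 56.6% were called, near the 55.1% of all genes, and their median log2 fold change was -0.14. Among 14 tested genes of class I chains and class I-like chains outside the 10, 2 were higher and 3 lower, with a median of 0.02. That is 35.7% called, against 55.1% of all genes (29.3% lower and 25.8% higher). The number higher was 5 without PBS replicate 3 or without replicate 3 of both groups, and 1 without any other single sample. H2-T22, whose product is a ligand of gamma delta T cells, fell from 79.7 ± 3.38 to 37.7 ± 3.35 TPM (log2 fold change -1.06 ± 0.078, limma adjusted p = 0.000115). Cd1d1, which presents lipids to NKT cells, fell from 55.6 ± 5.38 to 17.9 ± 5.08 TPM (-1.61 ± 0.19, limma adjusted p = 0.000637). The third gene that fell was Hfe, a regulator of iron uptake (-0.73). Mr1, which presents microbial metabolites to MAIT cells, rose from 9.81 ± 0.461 to 13.8 ± 1.74 TPM (0.45 ± 0.1, limma adjusted p = 0.0103).

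H2-Q genes encode Qa-2 and related chains and share sequence with H2-K1 and H2-D1. Summed over 7 H2-Q genes, the level was 422, 359 and 515 TPM with PBS and 488, 484 and 592 TPM with lysine. Replicate 3 was the highest of each group, and the groups overlapped. H2-Q6 was called higher (log2 fold change 0.39, limma adjusted p = 0.0494), a call lost in 9 of 14 other settings. They were quantile normalization, a pseudocount of 0.1, no filter, no trend, and leaving out PBS replicate 1 or 2 or lysine replicate 1, 2 or 3 (limma adjusted p from 0.0506 to 0.142).

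Of 16 tested genes of peptide supply and trimming, 8 were lower, 1 was higher and 7 did not pass (median -0.19). The share called was 56.2%, near the 55.1% of all genes, of which 29.3% were lower and 25.8% higher. Without lysine replicate 1, 5 were lower. Beside Psmb9 and Psmb8, Psmb10, the gene of the third inducible subunit, fell from 122.7 ± 19.997 to 64.0 ± 7.95 TPM (log2 fold change -0.92 ± 0.14, limma adjusted p = 0.00155). Of the constitutive counterparts, Psmb6 (log2 fold change -0.53, limma adjusted p = 0.00114) and Psmb5 (-0.18, limma adjusted p = 0.0421) fell too, and Psmb7 did not pass (-0.18, limma adjusted p = 0.0843). Of the genes of peptidases that degrade cytosolic peptides, Ide (-0.93 ± 0.093, limma adjusted p = 0.000347) and Thop1 (-0.89 ± 0.12, limma adjusted p = 0.000986) fell. Npepps, the gene of the puromycin-sensitive aminopeptidase, was the only called member of this list that rose, from 60.1 ± 2.31 to 116.8 ± 10.9 TPM (0.94 ± 0.079, limma adjusted p = 0.000171).

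Among 9 genes of loading chaperones and quality control, 3 fell, none rose and 6 did not pass (median -0.06). The 33.3% that fell is near the 29.3% of all genes called lower. Calreticulin and ERp57 are parts of the peptide loading complex with tapasin and TAP. The calreticulin gene Calr fell from 943 ± 13.1 to 481 ± 28.7 TPM (log2 fold change -0.97 ± 0.057, limma adjusted p = 5.89e-05), and the ERp57 gene Pdia3 from 334 ± 16.4 to 213 ± 2.65 TPM (-0.65 ± 0.053, limma adjusted p = 0.000166). P4hb, which encodes the protein disulfide isomerase PDI, fell as well (-0.44 ± 0.088, limma adjusted p = 0.00559). Canx, the gene of the chaperone calnexin, was at 244 ± 19.4 and 247 ± 20.6 TPM and did not pass (limma adjusted p = 0.899). Of the genes of the loading complex, Calr, Pdia3 and Tap1 were thus called lower and B2m higher, while Tap2, Tapbp, H2-K1 and H2-D1 did not pass.

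Of 21 genes of factors and receptors that act on class I transcription, 11 were higher, 6 lower and 4 did not pass (median 0.39). The share called was 81%, against 55.1% of all genes (25.8% higher and 29.3% lower). Chosen after their values were seen, Stat2 (-1.13), Irf9 (-0.89), Irf2 (-0.60) and Rfx5 (-1.18), a subunit of the RFX complex on the SXY module, fell, with limma adjusted p of 0.00343, 0.00087, 0.0186 and 0.004. Irf2 lost its call without lysine replicate 1 (limma adjusted p = 0.0565) or 2 (limma adjusted p = 0.0607). The genes of the other RFX subunits, Rfxap (-0.13, limma adjusted p = 0.591) and Rfxank (-0.04, limma adjusted p = 0.826), did not pass. Among the interferon receptor genes, Ifnar1 fell (-0.54 ± 0.07, limma adjusted p = 0.000942). Ifnar2 (0.49, limma adjusted p = 0.00778) and Ifngr2 (0.51, limma adjusted p = 0.000443) rose, and Ifngr1 did not pass (0.0039, limma adjusted p = 0.966).

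Genes of other factors of the same promoters rose. Nfya, a subunit of NF-Y, went from 52.9 ± 3.36 to 102.7 ± 4.46 TPM (log2 fold change 0.95 ± 0.068, limma adjusted p = 0.000103), and Nfkb1, a precursor of NF-kB, from 99.7 ± 1.29 to 272 ± 37.5 TPM (1.43 ± 0.10, limma adjusted p = 0.000102). Irf1, another activator of class I genes and likewise chosen after its values were seen, was at 46.1, 52.2 and 86.1 TPM with PBS and at 118, 121 and 137 TPM with lysine. Its samples did not overlap, with replicate 3 again the highest of each group (1.07 ± 0.22, limma adjusted p = 0.00668). Also called higher, and named after their values were seen, were Nfyb (0.76), Atf1 (0.69), Ezh2 (0.66), Creb1 (0.63), Nfyc (0.61) and Rela (0.39). Their limma adjusted p lay between 0.000421 and 0.00547. Irf8 did not pass (-0.01, limma adjusted p = 0.935).

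In the list of cross-presentation genes, 8 of 16 tested were lower and 1 was higher with lysine (median -0.36). That is 56.2% called, near the 55.1% of all genes (29.3% lower and 25.8% higher). Stx4a, which encodes a membrane fusion protein, fell from 124.9 ± 11.4 to 41.8 ± 3.66 TPM (log2 fold change -1.56 ± 0.093, limma adjusted p = 6.27e-05). Vcp, which encodes an ATPase that extracts proteins from membranes, fell from 263 ± 5.93 to 177 ± 0.769 TPM (-0.57 ± 0.045, limma adjusted p = 0.000142). Derl1, a gene of the retrotranslocation channel, was the only called member of this list that rose (0.59 ± 0.065, limma adjusted p = 0.000487). MHC class II genes, set beside these, fell in 1 of 9 tested cases and rose in none (median -0.27), or 11.1% called against 55.1% of all genes (29.3% lower and 25.8% higher). The 1 was Ciita, the class II counterpart of Nlrc5, from 6.41 ± 2.29 to 3.41 ± 0.350 TPM (-0.71 ± 0.21, limma adjusted p = 0.028), lost without lysine replicate 1 (limma adjusted p = 0.0715) or 2 (limma adjusted p = 0.0804) and with no filter (limma adjusted p = 0.0785). Without replicate 3 of both groups, 5 class II genes were lower and 1 higher; without PBS replicate 2 there were 2 lower, and without lysine replicate 1 or 2 there were 0. Whether the classes differed in their change was not tested.

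**Figure D5:**
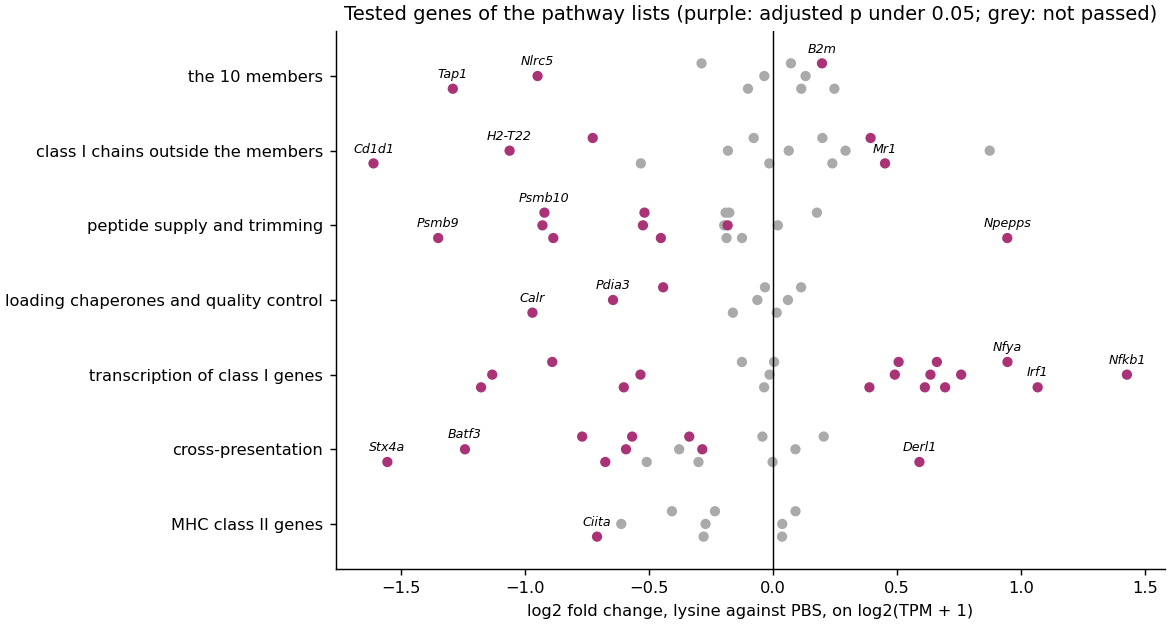
Log2 fold change with lysine (x axis, log2(TPM + 1) scale) of the 10 genes and of the tested genes of 6 pathway lists (rows), 1 transcription gene not shown, with purple for an adjusted p under 0.05. Called genes of peptide supply and cross-presentation lie to the left but for Npepps and Derl1, and the transcription list spreads on both sides of 0, from Rfx5 at -1.18 to Nfkb1 at 1.43 among those shown.

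The dendritic cell label was checked on 10 markers, all tested. Itgax (364 ± 19.4 TPM with PBS), H2-Ab1 and Cd74 were abundant. With PBS, Flt3 (1.26 to 2.66 TPM) and Dpp4 (2.60 to 3.53 TPM) were low, and Zbtb46 ranged from 6.99 to 32.9 TPM. With lysine, 2 of the 10 were called lower, Ciita and Batf3. Batf3, also in the cross-presentation list and named after its values were seen, fell from 96.2 ± 26.3 to 39.2 ± 2.86 TPM (log2 fold change -1.24 ± 0.18, limma adjusted p = 0.00141). Macrophage markers were also present, led by Cd68 (545 TPM with PBS), with a summed level of 959 to 1041 TPM with PBS and 820.3 to 856 TPM with lysine, and 4 of 9 tested were lower. Those called lower were 20% of the dendritic cell and 44.4% of the macrophage markers, against 29.3% of all genes tested.

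Summed levels of markers of some other cells also differed with lysine or in replicate 3. The counts called lower below come from few tested genes each, and 29.3% of all genes tested were called lower. Those of NK cells summed to 16.2 to 35.8 TPM with PBS and 2.18 to 10.5 TPM with lysine, with Gzma the highest, which fell (1 of 2 tested), while the defining marker Ncr1 was at 0 in 5 of 6 samples. T cell markers summed to 8.16 to 34.9 and 3.26 to 25.5 TPM, with Trac highest and in replicate 3 of each group, and 0 of 6 passed. Monocyte markers summed to 46.9 to 74.6 and 25.2 to 35.5 TPM (2 of 4 tested lower, Vcan highest), those of neutrophils to 77.0 to 116.1 and 36.3 to 44.6 TPM (1 of 3 lower, S100a8, with Elane at 0 in all samples), and those of plasmacytoid dendritic cells to 193 to 201 and 122 to 128 TPM (1 of 2 lower, Bst2, with Siglech at 0 in all samples). Mast cell and basophil markers (Kit highest over all 6 samples, 1 of 2 tested lower, which was Cpa3), erythroid markers (Hbb-bt highest, 0 of 1 called), B cell markers (Cd79b highest over all 6 samples) and fibroblast markers (Pdgfra highest) each summed to at most 11.3 TPM in every sample. The part of these cells in the falls of Tap1 and Nlrc5 was not tested. In bulk RNA, fewer cells of a type and less RNA per cell cannot be told apart.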

How the data were processed

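The authors deposited TPM values for 55740 gene models, which they made with RSEM per the series' design text. Per the submitters' processing notes, HISAT2, StringTie, RSEM and edgeR were used, with the build GRCm38.p6 and no versions. Their roles, the annotation and any use of strand are unstated. TPM keeps no depth, so no counting interval is given.

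Columns were matched to samples by group and replicate number, K standing for lysine. No more than 0.598% of tested genes had the same TPM in any pair of samples, so none was taken as deposited again. Pearson's r between samples, over log2(TPM + 1) of tested genes, was 0.974 to 0.982 within groups and 0.914 to 0.934 across them.

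Lysine was compared with PBS by limma 3.58.1 (R 4.3.3) with an intensity trend on log2(TPM + 1), over genes that reached 1 TPM in 3 or more samples, with Benjamini-Hochberg adjustment over all 12539. Ratios were compared by exact permutation. On simulated data over 12539 genes, limma recovered 33%, 95.5% and 99.5% of genes changed by 0.5, 1 and 2 on the log2 scale. It made 7, 11 and 11 false calls. Only a small part of the genes was changed there, none of low level, in normal noise at the spread that limma estimated. In the real data 55.1% were called, which makes the adjustment less strict, so the recovered shares do not describe this comparison. Alternatives covered scaling, pseudocount, filter, trend, a replicate block and leaving out each sample.

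The 10 genes and all lists were chosen with earlier results of these data known. Named genes are the 10, and up to 3 called members with the smallest adjusted p in each pathway list. A single called member against the rest and the most abundant marker of each cell type are named too. Others are stated as chosen after their values were seen. So were Psmb5 to Psmb8, Psmb10, Hfe, H2-Q6, H2-Q10, Canx, Cpa3, Ifnar1, Ifnar2, Ifngr1, Ifngr2, Rfxap, Rfxank and the low or absent markers. Positions come from GENCODE M21 on GRCm38, which held 93.4% of the identifiers and all 10 genes, and promoters from RefSeq on GRCm38.p6. Of the list genes, 1 was matched through a synonym. No protein sequence was used here, and 1 gene of the transcription list is not reported here.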

Additional observations from a re-analysis of the deposited data

How the results depend on the processing

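Tap1 (log2 fold change -1.42 to -1.14) and Nlrc5 (-1.15 to -0.75) stayed lower and past the threshold in all 14 alternatives, 1 of which was added after the data were seen. The number of the 10 genes called higher was 1; it was 2 under median-of-ratios scaling, 0 with no filter beyond a value above 0, 0 in limma without the trend, and 0 to 2 on leaving out single samples. Without replicate 3 of either group, 6 were called, 4 of them higher. Signs turned for H2-K1 under median-of-ratios scaling (0.014) and without replicate 3 of either group (0.029), and for Tapbp under quantile normalization (-0.036). On leaving out single samples the range was -0.066 to 0.0074 for H2-K1, above 0 without lysine replicate 3, and -0.20 to 0.0285 for Tap2, above 0 without PBS replicate 3. For the lysine minus PBS difference in the log2 ratio of H2-T23 to B2m it was -0.166 to 0.0212, above 0 without PBS replicate 3. The cause of these changes was not tested. The count over all genes stayed between 5742 and 7339, and that over the other pathway genes between 37 and 52.

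Same-numbered samples deviated together with correlations of 0.171, 0.092 and 0.245 over genes, against -0.208 to 0.0484 for samples of different numbers. Each correlated best with its own number, a hint of pairing from the data. The labels give only a shared number, so whether such samples shared a culture or batch cannot be told. With the replicate block 7339 genes were called, 3 of the 10 genes were lower with Tapbpl added (limma adjusted p = 0.0304), and 5 MHC class II genes fell. The log2 ratio of Tap1 to Tap2 differed by -1.22, lysine minus PBS, in the pairs. With equal groups this mean is the same paired or unpaired by arithmetic, so it says nothing about pairing. Depth is unknown in TPM, so what it limits cannot be given. The widths of the 95% intervals set what could be seen.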

Other observations

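H2-K2, annotated as a transcribed pseudogene beside H2-K1, rose with lysine while H2-K1 did not pass the test. It was chosen after its values were seen. Its level was 15.4, 16.3 and 19.1 TPM with PBS and 65.9, 68.9 and 67.1 TPM with lysine, and the groups did not overlap (3.98-fold higher, log2 fold change 1.94 ± 0.088, limma adjusted p = 2.82e-05). It lies at 33974659 to 33978827 on chromosome 17 of GRCm38, on the same strand as H2-K1. Of its distinct 50-base stretches, 9.38% also occur in transcripts of other genes, so the value is uncertain. Most were shared with Gm11127 (5.57%), H2-T22 (4.49%) and H2-Q4 (3.52%). H2-T22 was called lower with lysine and H2-Q4 did not pass. What shared reads add to the level of H2-K2 was not tested. In all 14 alternatives its log2 fold change lay between 1.88 and 2.02.

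H2-Q10 was likewise chosen after its values were seen. It was at 18.2, 18.0 and 39.0 TPM with PBS and at 39.1, 36.5 and 58.7 TPM with lysine. In TPM, replicate 3 was about as far above the others in both groups, but by a smaller factor with lysine than with PBS. The change did not pass (log2 fold change 0.87 ± 0.33, limma adjusted p = 0.0588), but it passed without replicate 3 of both groups (1.02, limma adjusted p = 0.000655). Over all 14 alternatives the limma adjusted p ranged from 0.000655 to 0.163.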
